A study of Mus musculus with 12 samples.

Results

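Paused mouse embryonic stem cells that carried a guide RNA against Mycn, Mycn-gRNA2, were compared with paused cells that carried a non-targeting guide (NT). The comparison uses 8 of the 12 libraries of the study, chosen by their titles: 4 with NT and 4 with Mycn-gRNA2. The other 4 carry a second Mycn guide, Mycn-gRNA3, and enter here only through the shared estimate of the spread and a test of the difference between the guides. All 12 come from the E14 line, an established line of mouse embryonic stem cells, with the genotype label WT(dCas_Alkbh5): every group, controls included, expressed a fusion of a Cas protein and Alkbh5. The cells grew on gelatin in serum with LIF, received a plasmid coding for a guide, passed 3 days of selection in 8 µg/mL blasticidin and then spent 5 days in 200 nM of the mTOR inhibitor INK128. Equal numbers of cells were extracted, and synthetic ERCC RNAs were added to the RNA, so that each gene has a level relative to the transcriptome (CPM, counts scaled to library size) and a level per ERCC read. There is a single control guide, so an effect of Mycn-gRNA2 and a difference between the NT and Mycn-gRNA2 cultures cannot be told apart. Whether replicates were grown separately is not in the labels; the spread behind each p-value may therefore be a technical one.

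Mycn is a transcription factor of the MYC family. MYC proteins bind DNA together with Max, most often at the E-box CACGTG, and are known for raising transcription of genes for ribosome assembly, nucleotide and polyamine synthesis and the cell cycle. The methyl mark m6A on mRNA is placed by a complex around Mettl3 and Mettl14, is removed by Alkbh5 and Fto, and is read by proteins of the YTH family, some of which speed the decay of marked transcripts. Inhibition of mTOR holds embryonic stem cells in a paused state with low growth and low RNA output, and the design asks whether bringing the demethylase to the Mycn transcript changes Mycn and what follows in paused cells.

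Mycn (chr12:12936093-12941836, minus strand, mm10) was higher in every Mycn-gRNA2 library than in every NT library. Its level was 141, 146, 140 and 136 CPM in NT replicates 1 to 4 and 205, 224, 255 and 262 CPM in Mycn-gRNA2 replicates 1 to 4. The groups did not overlap, and the Mycn-gRNA2 libraries spread more widely than the NT libraries (SD 26.7 against 4.17 CPM, n = 4 each). Over all genes tested, 10.1% had all 4 Mycn-gRNA2 levels above all 4 NT levels and 9.35% had all of them below. Relative to the transcriptome the rise was 0.75 log2 units (SE 0.0782; edgeR adjusted p = 3.75e-05), or 1.68-fold, and the call held without each of the 8 libraries in turn. With replicates 1 and 2 of each group alone, an alternative with 2 libraries against 2, the log2 fold change was 0.58 and did not pass (edgeR adjusted p = 0.0918), and with replicates 3 and 4 alone it was 0.90. Per 1000 ERCC reads Mycn stood at 8.43, 10.8, 9.18 and 8.55 reads in NT and at 17.0, 14.3, 20.9 and 25.1 with Mycn-gRNA2, again without overlap, and rose by 1.07 on the log2 scale (edgeR adjusted p = 2.63e-06), or 2.09-fold. The antisense transcript at Mycn may add reads, since the strand setting of the counting is not known from the sources.

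Neither the paralog Myc nor Alkbh5 itself passed the test. Myc lay at 110 to 140 CPM in NT and 121 to 137 CPM with Mycn-gRNA2, at 0.06 ± 0.138 on the relative log2 scale (± SE, edgeR adjusted p = 0.799) and at 0.38 per ERCC read (edgeR adjusted p = 0.0738). Alkbh5, whose reads here may come from the fusion and from the endogenous gene, lay at 94.1 to 102 CPM in NT and 86.0 to 100.8 CPM with Mycn-gRNA2, at −0.05 ± 0.0655 on the relative log2 scale (± SE, edgeR adjusted p = 0.643). Both groups overlapped for both genes.

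**Figure D1:**
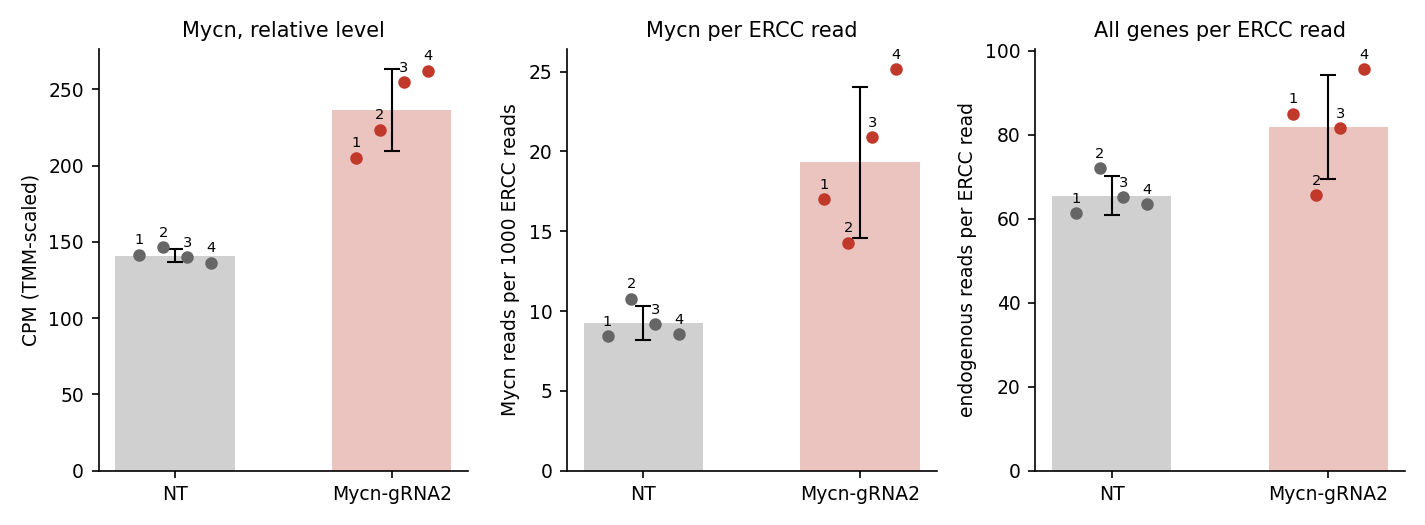
Bars show the mean of 4 libraries, error bars the SD and points the libraries, numbered by replicate, for Mycn in CPM, Mycn per 1000 ERCC reads and all endogenous reads per ERCC read. Mycn did not overlap between the guides on either scale, while endogenous reads per ERCC read did, because Mycn-gRNA2 replicate 2 at 65.6 lies among the NT libraries at 61.3 to 72.1.

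The libraries held 17248564 to 26405190 endogenous reads, with 1.035% to 1.605% of all reads on ERCC RNAs. Mycn-gRNA2 replicate 1 stood apart in base composition: genes in the top quartile of GC content (54.3% to 71.3%) had a median log2 deviation from the NT mean of −0.273 there, against 0.00197, 0.0279 and 0.143 in replicates 2, 3 and 4 and −0.0148 to 0.0268 within NT. Among genes called without replicate 1, replicate 1 itself lay at 0.492 of the way from the NT mean to the mean of the other 3 Mycn-gRNA2 libraries for rises under 2-fold (median) and at 0.487 for falls, but at 0.956 for rises of 2-fold or more. Replicate 2 lay at 0.614 of that way for rises of 2-fold or more, 0.517 for smaller rises and 0.567 for falls among genes called without it. The part of these differences in the results was not tested beyond the values without each library and the fit with a GC correction per library, which was chosen after seeing the data. The cultures had the markers of embryonic stem cells: the 10 marker genes (Pou5f1, Sox2, Nanog, Zfp42, Esrrb, Sall4, Utf1, Dppa5a, Tdgf1 and Fgf4) were all detected and summed to 5036 to 5584 CPM in NT and 4035 to 4726 CPM with Mycn-gRNA2.

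Across the transcriptome, 1462 of 14497 genes tested (10.1%) rose and 1022 (7.05%) fell with Mycn-gRNA2 relative to all other genes (edgeR adjusted p under 0.05). The rises were larger than the falls: 488 genes rose and 34 fell by 2-fold or more, and the median log2 change was 0.72 among rises and −0.44 among falls, which the threshold chose. Of the rises of 2-fold or more, 334 had a mean under 1 CPM in NT, so most of the large rises were of transcripts that were scarce in control cells. Without each of the 8 libraries in turn, 893 of the rises and 471 of the falls were always called. The counts moved by more than 1.5-fold with single libraries. Without Mycn-gRNA2 replicate 1 there were 2217 rises and 1897 falls, without Mycn-gRNA2 replicate 3 there were 591 falls, without NT replicate 3 there were 638 and without NT replicate 4 there were 668. Replicates 1 and 2 alone gave 32 rises and 1 fall, and replicates 3 and 4 alone gave 2587 and 2243. The 8 libraries fitted without Mycn-gRNA3 gave 971 rises and 578 falls, and the fit with a GC correction kept 1406 of the rises and 886 of the falls.

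**Figure D2:**
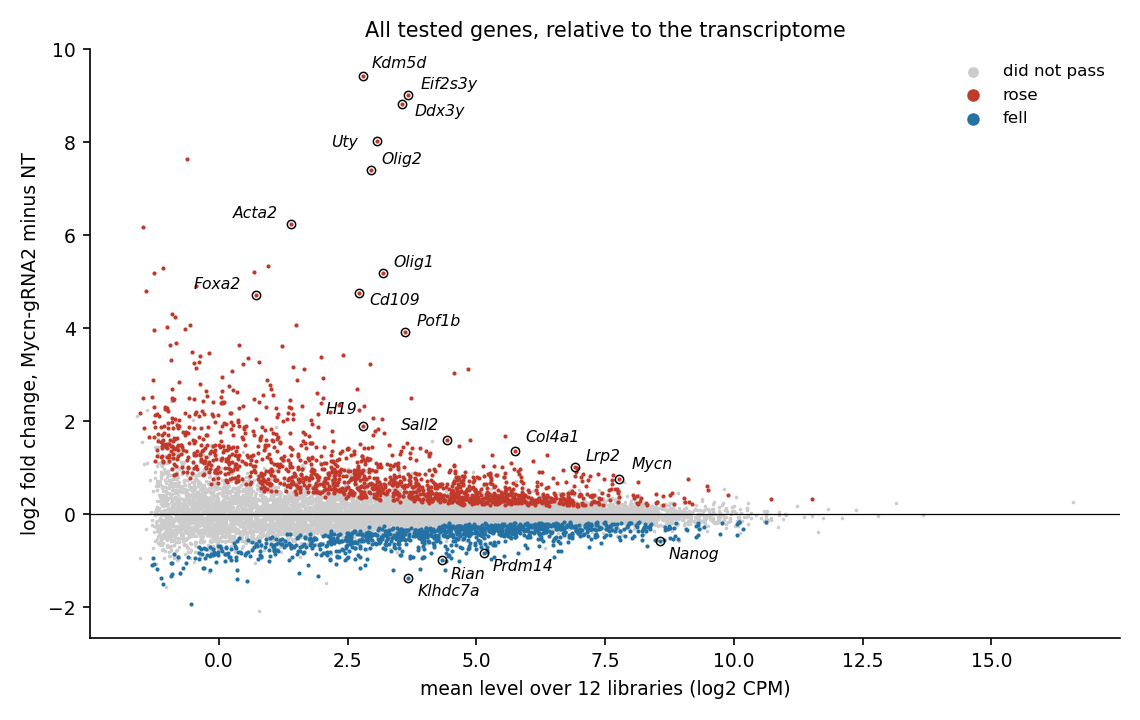
Each point is a tested gene, by its mean level over 12 libraries (x axis, log2 CPM) and its log2 fold change of Mycn-gRNA2 against NT (y axis), coloured by the edgeR call, with selected genes circled. Large rises lie at low mean levels, led by Y-linked genes and Olig2, while falls are mostly within 1 log2 unit.

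The largest rises with a mean level of at least 1 log2 CPM were of 4 Y-linked genes, described below with the chromosomes, and of Olig2, Acta2, Olig1, Cd109, Myl3 and Pof1b. Olig2, a transcription factor of motor neuron and oligodendrocyte precursors, had 5 reads over all NT libraries and 6.85 to 12.0 CPM with Mycn-gRNA2. Its share of reads stood 190-fold higher (95% counting interval 80.9 to 585). Its neighbour on chromosome 16, Olig1, rose from 0.224 to 0.356 CPM in NT to 7.45 to 15.3 CPM with Mycn-gRNA2 (38.0-fold, counting interval 26.0 to 57.9). Acta2, the actin of smooth muscle, rose from 4 NT reads to 2.56 to 4.17 CPM (85.8-fold, counting interval 33.2 to 317). Cd109, a surface glycoprotein, rose from 0.237 to 0.451 CPM to 4.17 to 15.8 CPM, and Pof1b, an actin-binding protein gene of the X chromosome, from 0.948 to 1.46 CPM to 9.48 to 34.6 CPM. In both, Mycn-gRNA2 replicate 1 was the highest library and replicate 2 the lowest, and all 4 lay above all NT libraries. Myl3, a muscle myosin light chain, rose from 0.0451 to 0.269 CPM to 1.87 to 4.38 CPM. All 10 of the largest rises, Y-linked genes included, were called without each library in turn (edgeR adjusted p from 1.27e-07 for Olig2 to 2.46e-05 for Myl3 with all libraries). Apart from Pof1b, these genes did not reach the cutoff of the low-count filter (0.417 CPM) in every NT library. They entered the test through the guide libraries, so their calls add no support beyond the levels. Counting intervals cover counting error only, since reads without molecular identifiers are not independent molecules.

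The largest falls were smaller and also came from genes of moderate or low level. Klhdc7a fell from 20.3, 23.6, 19.6 and 23.6 CPM in NT to 7.65, 13.6, 5.22 and 7.7 CPM, by 1.37 on the log2 scale (edgeR adjusted p = 0.00359, SE 0.268). Replicate 2 of Mycn-gRNA2 was the nearest to NT, and the groups did not overlap. The other 9 of the 10 largest falls were of D630039A03Rik, Nsg2, Dock10 (an activator of small GTPases), Msln (mesothelin, a surface protein), Crtac1, Sult5a1 (a sulfotransferase), En1 (a homeobox factor of the midbrain), Rcan2 (a regulator of calcineurin) and Panct2, with log2 fold changes from −1.33 for D630039A03Rik to −1.07 for Panct2. All 10 were also lower per ERCC read, by 0.76 for Panct2 to 1.10 for Klhdc7a on the log2 scale, and the relative call of each held without each library. The falls with the lowest p were of Lrrc16b, Smyd1 (a methyltransferase of muscle) and Zmat4. Lrrc16b stood at 30.5 to 34.6 CPM in NT and 15.1 to 18.5 CPM with Mycn-gRNA2 (log2 fold change −0.95, SE 0.0928, edgeR adjusted p = 2.46e-05).

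In the MYC network, which comprises the MYC proteins, their partner Max, and the MXD and MLX factors that compete for or share these partners, Mycn was the member whose call did not depend on a single library. Of 14 members tested 3 rose and 1 fell (21.4% and 7.14%, beside 10.1% and 7.05% of all genes tested), and the median log2 fold change was 0.06 against −0.002 over all genes tested. The other calls were small and ended without 5 or 6 of the 8 libraries: Mxi1, a repressor that pairs with Max, at 0.27, Mlxipl at 0.52 and the repressor Mnt at −0.31 (edgeR adjusted p up to 0.123, 0.0896 and 0.119 where lost). For Mxi1 these were Mycn-gRNA2 replicates 2 and 3 and NT replicates 1, 3 and 4. Mlxipl lost its call without Mycn-gRNA2 replicates 1 and 3 and each NT library, and Mnt without Mycn-gRNA2 replicates 2, 3 and 4 and NT replicates 1, 2 and 4.

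Of 77 known MYC target genes, 13 rose (16.9%, beside 10.1% of all genes tested), none fell (7.05% of all genes) and 64 did not pass. Their median log2 fold change was 0.09, and 9 of the 13 rises were called without each of the 8 libraries. The clearest rise was of Nop16, a nucleolar protein of ribosome assembly, at 31.1, 30.6, 29.7 and 31.6 CPM in NT and 47.5, 55.7, 57.8 and 53.5 CPM with Mycn-gRNA2 (log2 fold change 0.80, SE 0.102, edgeR adjusted p = 0.000172). Eif4e, the cap-binding factor of translation initiation, stood at 151 to 170 CPM in NT and at 245, 198, 212 and 199 CPM with Mycn-gRNA2, without overlap (log2 fold change 0.42, edgeR adjusted p = 0.00235). Phb, prohibitin of the inner mitochondrial membrane, stood at 76.4 to 87.2 CPM in NT and at 84.5, 181, 165 and 164 CPM with Mycn-gRNA2, so that replicate 1 lay within the NT range and the other 3 at about the same raised level (log2 fold change 0.86, SE 0.175, edgeR adjusted p = 0.00443). Cdk4, the G1 kinase, moved less, from 289 to 346 CPM to 341, 386, 390 and 393 CPM (log2 fold change 0.26, edgeR adjusted p = 0.0223), and its call ended without Mycn-gRNA2 replicate 3 or 4 or NT replicate 1, 3 or 4 (adjusted p up to 0.0768). The promoters of these 3 target genes hold the E-box CACGTG and are shown because they are the called targets with the lowest p that do. Each runs from 250 bases before to 50 bases after the start that RefSeq annotates on GRCm38.p6, on the plus strand, with the E-box in capitals: Eif4e at chr3:138527018-138527317, Phb at chr11:95666707-95667006 and Cdk4 at chr10:127063285-127063584.
Eif4e: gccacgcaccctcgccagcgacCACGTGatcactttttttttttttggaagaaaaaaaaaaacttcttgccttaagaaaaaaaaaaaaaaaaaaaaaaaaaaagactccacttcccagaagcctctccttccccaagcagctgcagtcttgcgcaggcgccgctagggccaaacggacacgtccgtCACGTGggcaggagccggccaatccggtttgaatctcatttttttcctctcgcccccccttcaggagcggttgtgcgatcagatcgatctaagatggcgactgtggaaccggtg
Phb: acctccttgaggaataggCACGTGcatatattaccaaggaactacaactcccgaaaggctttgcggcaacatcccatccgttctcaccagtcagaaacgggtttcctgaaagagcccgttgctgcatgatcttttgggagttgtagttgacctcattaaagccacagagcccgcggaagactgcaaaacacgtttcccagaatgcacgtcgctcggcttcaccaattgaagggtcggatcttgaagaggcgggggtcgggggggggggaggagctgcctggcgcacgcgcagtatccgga
Cdk4: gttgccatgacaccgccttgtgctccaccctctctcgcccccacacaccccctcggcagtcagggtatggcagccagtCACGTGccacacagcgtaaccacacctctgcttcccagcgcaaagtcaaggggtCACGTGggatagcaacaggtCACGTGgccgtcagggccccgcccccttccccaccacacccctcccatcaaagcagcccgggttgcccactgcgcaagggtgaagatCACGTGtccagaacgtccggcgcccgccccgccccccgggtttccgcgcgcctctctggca
The first base of the E-box lies 228 and 64 bases before the start in Eif4e, 232 bases before it in Phb, and 172, 118, 98 and 11 bases before it in Cdk4. CACGTG reads the same on both strands, so each match counts once. Among tested genes matched to a promoter, the motif was found in 111 of 1100 that rose (10.1%), 99 of 735 that fell (13.5%) and 1055 of 9007 that did not pass (11.7%), beside 8.09% of all 27025 promoters of the same length in the table. Among the MYC target genes it was found in 3 of 11 that rose and 17 of 57 that did not pass. The share with an E-box was thus no higher among rises than among other genes, and a match is a description, not a binding site.

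Polyamine synthesis held some of the steadiest rises among growth genes. Of 17 members tested 5 rose and 1 fell, beside 10.1% and 7.05% of all genes, with a median of 0.05. The 3 rises that held without each library were of consecutive enzymes of the pathway. Odc1, the rate-limiting ornithine decarboxylase, stood at 557, 586, 498 and 485 CPM in NT and 733, 866, 847 and 781 CPM with Mycn-gRNA2 (log2 fold change 0.60, SE 0.0871, edgeR adjusted p = 0.00044). Srm, spermidine synthase, stood at 82.1 to 90.0 CPM in NT and 110, 165, 165 and 154 CPM with Mycn-gRNA2 (log2 fold change 0.79, edgeR adjusted p = 0.000562). Sms, spermine synthase, stood at 39.2 to 52.6 CPM in NT and 82.1 to 99.4 CPM with Mycn-gRNA2 (log2 fold change 0.90, edgeR adjusted p = 6.44e-05). None of the 3 overlapped between groups, and in Odc1 and Srm replicate 1 was the lowest Mycn-gRNA2 library. Sat1, the acetyltransferase that starts polyamine breakdown, fell from 21.5 to 25.3 CPM to 14.2 to 21.2 CPM (log2 fold change −0.46, edgeR adjusted p = 0.0124) and also held without each library. The remaining rises, of Smox (spermine oxidase) and Mtap, ended without 5 and 3 of the 8 libraries (edgeR adjusted p up to 0.127 and 0.0541 where lost). Odc1 and Srm are also among the MYC target genes that rose, so the 2 lists are not separate. Amd1 and Amd2, near-identical genes of a further decarboxylase of polyamine synthesis, are listed at 0 in all 8 libraries.

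Of 62 further ribosome biogenesis factors 4 rose, 1 fell (6.45% and 1.61%, beside 10.1% and 7.05% of all genes) and 57 did not pass relative to the transcriptome, with a median log2 fold change of 0.02. Ddx18, a nucleolar helicase, was the rise that held without each library, at 165 to 181 CPM in NT and 193, 276, 254 and 229 CPM with Mycn-gRNA2 (log2 fold change 0.46, SE 0.0974, edgeR adjusted p = 0.00547). The fall was of Nop58, a core protein of box C/D ribonucleoproteins, from 624 to 723 CPM to 453 to 577 CPM (log2 fold change −0.35), and its call ended without NT replicate 3 (edgeR adjusted p = 0.0545). Of 78 cytosolic ribosomal protein genes tested 1 rose (1.28%, beside the same 10.1%), none fell and 77 did not pass, and the median was 0.002. The exception, Rpl41, at 470 to 615 CPM in NT and 636 to 1158 CPM with Mycn-gRNA2 (log2 fold change 0.52), lost its call without NT replicate 1, 3 or 4 (edgeR adjusted p up to 0.0977). Reads of ribosomal protein genes can be split with their many pseudogenes, and Rpl26 had no read in the 8 libraries.

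In the list of RNA polymerase II and its elongation factors, 2 of 44 genes rose, 3 fell (4.55% and 6.82%, beside 10.1% and 7.05% of all genes) and 39 did not pass, with a median of 0.05. Polr2a, the largest subunit of the polymerase, stood at 731, 752, 692 and 777 CPM in NT and 566, 657, 567 and 575 CPM with Mycn-gRNA2, without overlap (log2 fold change −0.32, SE 0.0667, edgeR adjusted p = 0.00514). The elongation factor Ell fell from 49.3 to 54.3 CPM to 38.5 to 44.2 CPM (log2 fold change −0.31, edgeR adjusted p = 0.00715). Per ERCC read neither changed detectably: Polr2a had a log2 fold change of −0.02 (edgeR adjusted p = 0.921) and Ell one near 0 (edgeR adjusted p = 0.997). The other calls, of Hexim1 at −0.23, Polr2l at 0.48 and Polr2e at 0.26, each ended without at least 2 libraries: Hexim1 without NT replicate 1 or 3, Polr2l without Mycn-gRNA2 replicate 3 or 4 or NT replicate 1, 2 or 3, and Polr2e without Mycn-gRNA2 replicate 4 or NT replicate 1, 3 or 4.

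Of 21 m6A writers, erasers and readers, 3 rose (14.3%, beside 10.1% of all genes), none fell (7.05% of all genes) and 18 did not pass, with a median of 0.07. Rbm15, an RNA-binding protein that guides the writer complex, stood at 60.0, 58.0, 63.4 and 59.6 CPM in NT and 81.4, 82.7, 93.8 and 97.8 CPM with Mycn-gRNA2 (log2 fold change 0.56, SE 0.0739, edgeR adjusted p = 0.000224). The reader Ythdf2, known for directing marked mRNA to decay, stood at 119 to 131 CPM in NT and 186, 149, 169 and 164 CPM with Mycn-gRNA2 (log2 fold change 0.41, SE 0.0705, edgeR adjusted p = 0.00158). The groups did not overlap in either, and both calls held without each library. The writer subunit Virma, listed under an older symbol, had a log2 fold change of 0.19 and was called by a margin (edgeR adjusted p = 0.0499) that it lost without any library but Mycn-gRNA2 replicate 2 (adjusted p up to 0.137).

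Genes of naive pluripotency were lower in Mycn-gRNA2 cells. Of 22 members tested 10 fell (45.5%, beside 7.05% of all genes tested), 1 rose and 11 did not pass. The median log2 fold change was −0.29 against −0.002 over all genes, and 6 of the falls held without each library. Nanog stood at 497, 518, 465 and 478 CPM in NT and at 377, 344, 307 and 291 CPM with Mycn-gRNA2 (log2 fold change −0.57, SE 0.0775, edgeR adjusted p = 0.000286). Prdm14, a repressor of the exit from naive pluripotency, fell from 47.1 to 51.6 CPM to 33.6, 29.5, 25.7 and 23.1 CPM (log2 fold change −0.83, SE 0.106, edgeR adjusted p = 0.00019). Fgf4, the growth factor through which these cells signal to each other, fell from 160 to 189 CPM to 112 to 141 CPM (log2 fold change −0.46, edgeR adjusted p = 0.00334). No NT library overlapped a Mycn-gRNA2 library in these 3 genes. With replicates 1 and 2 alone Nanog was at −0.49 and Prdm14 at −0.69, neither past the test (edgeR adjusted p = 0.133 and 0.099).

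The calls above are relative to the transcriptome. Per ERCC read 2 of the 22 naive genes rose, 1 fell and their median log2 fold change was 0.02, where all genes had a median of 0.31. Prdm14 was lower on both scales (log2 fold change per ERCC read −0.53, edgeR adjusted p = 0.0131), while Nanog at −0.27 per ERCC read did not pass (edgeR adjusted p = 0.139). Dppa3, a maternal-effect gene of the naive state and the germline, rose against the rest of its list, from 0.880 to 1.79 CPM to 3.51 to 5.00 CPM (log2 fold change 1.71, SE 0.214, edgeR adjusted p = 0.000151). Of the 10 markers of embryonic stem cell identity, 3 fell (7.05% of all genes did), none rose and 7 did not pass, with a median of −0.22. These were Nanog and Fgf4, named above, and Sox2, at 691 to 806 CPM in NT and 498 to 668 CPM with Mycn-gRNA2 (log2 fold change −0.27, edgeR adjusted p = 0.0488). The Sox2 call ended without Mycn-gRNA2 replicate 2 or 3 or any NT library (adjusted p up to 0.144).

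In the opposite direction, 7 of 20 genes of the formative and primed epiblast, the states that follow naive pluripotency in the embryo, rose and 2 fell (35.0% and 10.0%, beside 10.1% and 7.05%), with a median of 0.26. The 4 rises that held without each library included Sall2, Pou3f1 and Lef1. Sall2, a zinc finger factor, stood at 8.44, 9.60, 8.63 and 8.01 CPM in NT and at 16.7, 23.1, 31.1 and 33.8 CPM with Mycn-gRNA2 (log2 fold change 1.60, SE 0.184, edgeR adjusted p = 7.94e-05). Pou3f1 (Oct6), a POU factor of the formative epiblast, rose from 18.9 to 24.5 CPM to 29.6, 42.0, 50.7 and 53.9 CPM (log2 fold change 1.03, SE 0.154, edgeR adjusted p = 0.00054). Lef1, a factor of Wnt signalling, rose from 0.813 to 1.53 CPM to 2.61 to 6.77 CPM (log2 fold change 2.15, edgeR adjusted p = 0.00453). Of the falls, that of Zic2 at −0.31 was lost without any library but Mycn-gRNA2 replicate 1 (edgeR adjusted p up to 0.127).

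**Figure D3:**
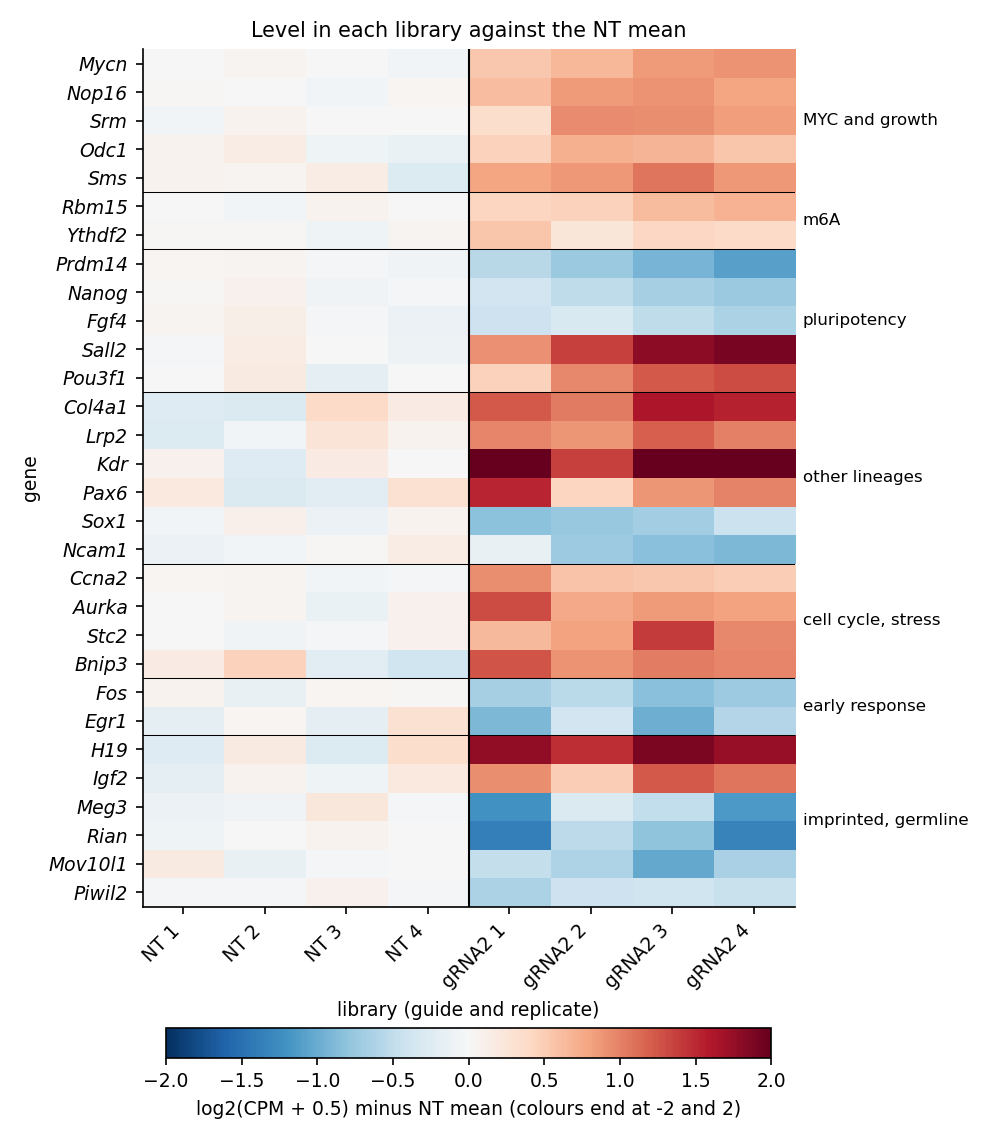
Each cell gives the log2(CPM + 0.5) of a named gene (rows, grouped by list) in a library (columns) minus its NT mean, red for higher and blue for lower, with colours ending at 2 log2 units. The 4 NT libraries stay near 0, and in Prdm14, Nanog, Sall2 and Pou3f1 Mycn-gRNA2 replicates 1 and 2 lie closer to NT than replicates 3 and 4.

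Marker genes of other lineages were mostly scarce and some of them rose. Genes that passed the low-count filter only through the guide libraries are biased towards rises. Counts are therefore given for members that would pass it on NT libraries alone, beside 1166 rises and 1020 falls among the 13445 genes that would. In bulk RNA, a few cells of another type and a low level in every cell cannot be told apart. Of primitive endoderm genes, 14 of 24 would pass on NT alone, and of these 8 rose and 2 fell with a median log2 fold change of 1.03. Col4a1, a collagen of the basement membrane, stood at 20.6, 20.2, 32.6 and 27.7 CPM in NT and 58.4, 51.2, 77.3 and 73.3 CPM with Mycn-gRNA2 (log2 fold change 1.36, SE 0.157, edgeR adjusted p = 7.67e-05). Lrp2 (megalin), an endocytic receptor, stood at 59.6 to 86.4 CPM in NT and 134 to 166 CPM with Mycn-gRNA2 (log2 fold change 1.01, SE 0.0994, edgeR adjusted p = 2.46e-05). Foxa2, an endoderm factor outside the 14, had 6 reads over the NT libraries and 1.43 to 2.26 CPM with Mycn-gRNA2 (28.4-fold, counting interval 12.8 to 78.4). The calls of Col4a1 and Lrp2 held without each library. Their log2 fold changes with replicates 1 and 2 alone also passed (edgeR adjusted p = 0.0164 for Col4a1 and 0.0256 for Lrp2). Foxa2 entered the test through the guide libraries, so its calls add no support beyond the levels. Lamc1, a laminin chain of the same membrane, went the other way, from 1224 to 1441 CPM to 954 to 1009 CPM (log2 fold change −0.45, SE 0.0645, edgeR adjusted p = 0.000408). The second fall, of Sox7 at −0.58, overlapped between the groups and its call ended without Mycn-gRNA2 replicate 3 or 4 or NT replicate 1, 3 or 4 (edgeR adjusted p up to 0.0833). Summed over the list, levels were 1760 to 2107 CPM in NT and 1620 to 1831 CPM with Mycn-gRNA2, and no member was at 0 in all 8 libraries.

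Of mesenchyme and smooth muscle genes 12 of 28 would pass on NT alone, of which 4 rose, none fell and the median was 0.39. The list summed to 2268 to 2783 CPM in NT and 2131 to 2373 CPM with Mycn-gRNA2. Outside these 12, and beside Acta2 and Myl3, Col3a1, a fibrillar collagen, had 1 read over the NT libraries and 0.501 to 0.826 CPM with Mycn-gRNA2 (57.4-fold, counting interval 9.89 to 2307).

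Of neural genes 11 of 20 would pass on NT alone, of which 2 rose and 5 fell with a median of 0.02. Sox1, a factor of the early neural plate, fell from 114 to 133 CPM to 69.7 to 91.9 CPM (log2 fold change −0.67, SE 0.109, edgeR adjusted p = 0.000932), and the adhesion molecule Ncam1 fell from 41.9 to 50.6 CPM to 41.3, 27.5, 25.3 and 24.4 CPM (log2 fold change −0.63, edgeR adjusted p = 0.0104). Pax6, a factor of the neural tube and eye, rose from 4.08 to 6.42 CPM to 7.03 to 15.7 CPM (log2 fold change 1.06, edgeR adjusted p = 0.00434). The calls of Sox1, Ncam1 and Pax6 held without each library. The neural list summed to 571 to 640 CPM in NT and 498 to 588 CPM with Mycn-gRNA2.

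Of mesendoderm and primitive streak genes 10 of 18 would pass on NT alone, of which 1 rose and 2 fell, with a median of −0.05. The rise was of Snai1, a repressor of epithelial genes, from 1.07 to 1.81 CPM to 3.47 to 6.00 CPM (log2 fold change 1.54, edgeR adjusted p = 0.000286). The falls were of Evx1, a streak factor whose call ended without 6 of the 8 libraries, and Fgf17. Fgf17 fell from 63.5 to 67.7 CPM to 36.8 to 50.0 CPM (log2 fold change −0.50, SE 0.0986, edgeR adjusted p = 0.00385). Outside the 10, Kdr, the VEGF receptor of mesoderm, rose from 45 NT reads to 2.03 to 4.47 CPM (7.61-fold, counting interval 5.56 to 10.6). The list summed to 482 to 587 CPM in NT and 308 to 751 CPM with Mycn-gRNA2. Of trophoblast and epithelial genes 10 of 15 would pass on NT alone, of which 2 rose and 2 fell with a median of −0.05. None of these 4 calls held without each library: Krt18 (log2 fold change 0.92) ended without Mycn-gRNA2 replicate 3, Krt8 (0.48) without Mycn-gRNA2 replicate 4 or NT replicate 3 or 4, Tead4 (−0.40) without Mycn-gRNA2 replicate 3 or NT replicate 3 or 4, and Tfap2a (−0.67) without Mycn-gRNA2 replicate 3 or 4 or NT replicate 4. The list summed to 71.2 to 94.2 CPM in NT and 77.1 to 86.0 CPM with Mycn-gRNA2. Of blood and endothelial markers 5 would pass on NT alone and none of them was called. Cd34, outside those 5, rose from 34 to 80 reads (2.41-fold, counting interval 1.60 to 3.72). The part of these marker levels in the other results was not tested.

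**Figure D4:**
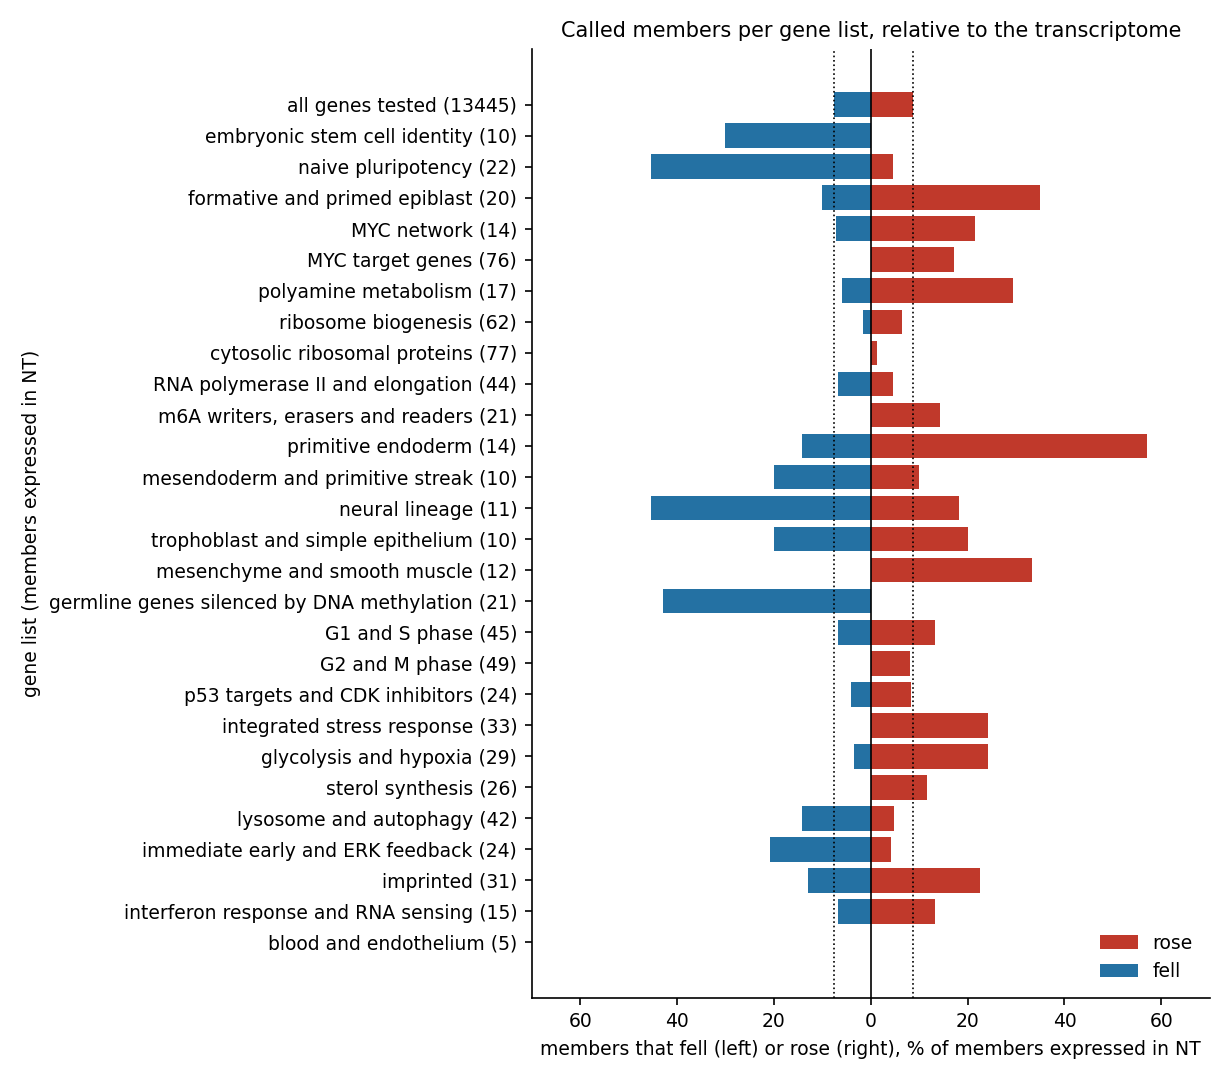
Bars give the percentage of list members that rose (right) or fell (left) with Mycn-gRNA2 relative to the transcriptome, among the members that pass the low-count filter on NT libraries alone (number in brackets), with dotted lines at the share of all such genes. Naive pluripotency and germline genes extend furthest to the left beyond the dotted line among lists with 20 or more in brackets, and the ribosomal protein genes hardly extend to either side. The neural list, with 11 in brackets, also extends far to the left (5 fell).

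Of 49 G2 and M phase genes 4 rose (8.16%, beside 10.1% of all genes), none fell (7.05% of all genes) and 45 did not pass, with a median of 0.01. Aurka, the kinase of spindle poles, stood at 64.9, 67.1, 58.9 and 68.6 CPM in NT and at 161, 110, 118 and 114 CPM with Mycn-gRNA2 (log2 fold change 0.96, SE 0.109, edgeR adjusted p = 6.88e-05). Bub3, of the spindle checkpoint, rose from 87.4 to 93.8 CPM to 120 to 130 CPM (log2 fold change 0.49, SE 0.0569, edgeR adjusted p = 8.36e-05), and Plk4, of centriole duplication, from 64.1 to 67.3 CPM to 76.0 to 85.4 CPM (log2 fold change 0.29, edgeR adjusted p = 0.00404). Of 45 genes of G1 and S phase 6 rose and 3 fell (13.3% and 6.67%, beside the same shares of all genes), with a median of 0.004. Ccna2 (cyclin A2) stood at 145 to 156 CPM in NT and 286, 224, 219 and 212 CPM with Mycn-gRNA2 (log2 fold change 0.64, SE 0.0828, edgeR adjusted p = 0.00019), the kinase Cdk6 rose by 0.34, and the replication factor Gins3 fell from 27.8 to 31.7 CPM to 19.3 to 25.0 CPM (log2 fold change −0.39, edgeR adjusted p = 0.00663). In Aurka and Ccna2 replicate 1 stood well above the other Mycn-gRNA2 libraries, and none of the 6 genes named overlapped between groups. Among 25 p53 targets and CDK inhibitors 2 rose, 1 fell and 22 did not pass, again beside 10.1% and 7.05% of all genes. Cdkn1a (p21) rose from 13.1 to 19.2 CPM to 21.8 to 28.3 CPM (log2 fold change 0.66, SE 0.129, edgeR adjusted p = 0.00338) and Zmat3, a p53 target, by 0.41 (edgeR adjusted p = 0.000951). Trp53 itself fell by 0.31 on the log2 scale, a call that ended without NT replicate 2 or 4 (edgeR adjusted p = 0.0588 and 0.0606).

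Of 33 integrated stress response genes that would pass on NT alone, 8 rose, none fell and the median was 0.17. Among all 13445 genes that would, 1166 rose and 1020 fell. In the whole list of 35 tested, 9 rose (25.7%, beside 10.1% of all genes) and none fell (7.05% of all genes). Of these 9 rises 7 held without each library. Stc2, a secreted glycoprotein of the stress response, stood at 2.35, 2.20, 2.26 and 2.51 CPM in NT and 3.91, 4.41, 6.93 and 4.98 CPM with Mycn-gRNA2 (log2 fold change 1.12, SE 0.172, edgeR adjusted p = 0.000633). Slc1a4, a transporter of serine and alanine, rose from 4.91 to 7.27 CPM to 9.89 to 17.5 CPM (log2 fold change 1.06, edgeR adjusted p = 0.00124). Nupr1, a stress-induced chromatin protein outside the 33, rose from 20 to 124 reads (6.35-fold, counting interval 3.94 to 10.8). It counts among the 9 rises and the 7 that held. Because Nupr1 entered the test through the guide libraries, its call adds no support beyond the levels.

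Among 31 glycolysis and hypoxia genes 7 rose and 1 fell (22.6% and 3.23%, beside 10.1% and 7.05% of all genes), with a median of 0.23, and 2 of the rises held without each library. These were Bnip3, of hypoxic mitophagy, from 3.61 to 6.91 CPM to 9.53 to 12.4 CPM (log2 fold change 1.08, SE 0.167, edgeR adjusted p = 0.000672) and P4ha2, a collagen prolyl hydroxylase, with a log2 fold change of 0.52 (edgeR adjusted p = 0.0104). The glucose transporter Slc2a3 fell by 0.33, a call that ended without Mycn-gRNA2 replicate 3 (edgeR adjusted p = 0.0541). Of 26 sterol synthesis genes 3 rose (11.5%, near the 10.1% of all genes), none fell and the median was 0.18. Cyp51, a demethylase of lanosterol, rose from 35.6 to 43.1 CPM to 44.3 to 49.9 CPM (log2 fold change 0.33, SE 0.0776, edgeR adjusted p = 0.0113). The call of Dhcr7 at 0.46 was lost without Mycn-gRNA2 replicate 4 or NT replicate 3 or 4 (edgeR adjusted p up to 0.0661). Of 42 lysosome and autophagy genes 2 rose, 6 fell (4.76% and 14.3%, beside 10.1% and 7.05% of all genes) and 34 did not pass, with a median of −0.09. The cathepsin Ctsz rose from 35.4 to 39.1 CPM to 41.2 to 52.6 CPM (log2 fold change 0.35, edgeR adjusted p = 0.0103), and Atg7, an enzyme of autophagosome formation, fell from 19.9 to 23.0 CPM to 14 to 18.4 CPM (log2 fold change −0.37, edgeR adjusted p = 0.0139).

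Immediate early genes respond to growth factor signals within minutes. Of 25 tested with the feedback genes of ERK 5 fell, 1 rose and 19 did not pass, where 7.05% of all genes fell and 10.1% rose, with a median of −0.05. Fos stood at 4.47, 3.77, 4.31 and 4.31 CPM in NT and at 2.48, 2.74, 2.13 and 2.34 CPM with Mycn-gRNA2 (log2 fold change −0.81, SE 0.133, edgeR adjusted p = 0.00109). Egr1 fell from 43.2 to 60.6 CPM to 24.6 to 37.5 CPM (log2 fold change −0.72, SE 0.165, edgeR adjusted p = 0.0094), and Dusp1, a MAP kinase phosphatase, from 28.7 to 31.1 CPM to 16.2 to 22.6 CPM (log2 fold change −0.58, edgeR adjusted p = 0.00384). These 3 did not overlap between groups and held without each library. Ier5 rose, from 1.42 to 1.72 CPM to 2.00 to 4.17 CPM (log2 fold change 0.97, edgeR adjusted p = 0.00464). Calls of Ier2 at −0.32 and Ccnd1 (cyclin D1) at −0.29 ended without Mycn-gRNA2 replicate 3, among others: Ier2 also without NT replicate 1, 2 or 4, and Ccnd1 also without Mycn-gRNA2 replicate 4 or any NT library.

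Imprinted genes, which are expressed from the copy of one parent, changed in both directions in part of the list. Of 32 tested 7 rose, 4 fell (21.9% and 12.5%, beside 10.1% and 7.05% of all genes) and 21 did not pass, with a median of −0.03, and 5 rises and all 4 falls held without each library. H19, a maternally expressed RNA of chromosome 7, stood at 1.94, 2.78, 1.90 and 3.21 CPM in NT and 9.39, 7.57, 10.3 and 9.21 CPM with Mycn-gRNA2 (log2 fold change 1.90, SE 0.162, edgeR adjusted p = 8.5e-06). Its neighbour Igf2, a paternally expressed growth factor named after its values were seen, rose from 3.25 to 4.35 CPM to 5.48 to 9.40 CPM (log2 fold change 1.04, SE 0.215, edgeR adjusted p = 0.00484). Mest, likewise named afterwards, rose by 0.92, and the transporter Slc38a4 by 0.59. In the Dlk1-Meg3 cluster of chromosome 12, 3 maternally expressed RNAs fell. Meg3 stood at 37.0, 38.3, 47.1 and 39.5 CPM in NT and 17.2, 32.7, 28.6 and 17.9 CPM with Mycn-gRNA2 (log2 fold change −0.75, SE 0.182, edgeR adjusted p = 0.012), Rian at 29.3 to 32.5 CPM and 11.7, 21.3, 17.6 and 12.0 CPM (log2 fold change −0.996, SE 0.158, edgeR adjusted p = 0.000846), and Mirg fell from 188 to 79 reads (log2 fold change −1.20, edgeR adjusted p = 0.0128). Replicates 1 and 4 were the lowest in Meg3 and Rian, and neither overlapped NT. Peg13, of chromosome 15, fell by 0.73 on the log2 scale (edgeR adjusted p = 0.00206).

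Of 21 germline genes known to be silenced by DNA methylation 9 fell (42.9%, beside 7.05% of all genes), none rose and 12 did not pass, with a median of −0.32. In 7 of the 9 the call held without each library. Piwil2, of the piRNA pathway, stood at 22.4 to 24.5 CPM in NT and 14.7 to 17.4 CPM with Mycn-gRNA2 (log2 fold change −0.48, SE 0.0742, edgeR adjusted p = 0.000656), and the piRNA helicase Mov10l1 at 7.72 to 9.84 CPM and 3.97 to 6.04 CPM (log2 fold change −0.74, SE 0.131, edgeR adjusted p = 0.00186). The homeobox gene Rhox5 stood at 33.2, 32.5, 27.3 and 23.0 CPM in NT and 14.5 to 19.8 CPM with Mycn-gRNA2 (log2 fold change −0.73, SE 0.136, edgeR adjusted p = 0.00272). As with the naive genes, the median per ERCC read lay near 0 (−0.02), with 1 member called higher and 1 lower. Of interferon response and RNA sensing genes 15 of 26 would pass the low-count filter on NT alone, of which 2 rose and 1 fell. Among all 13445 genes that would, 1166 rose and 1020 fell. In the whole list of 21 tested, 3 rose and 1 fell (14.3% and 4.76%, beside 10.1% and 7.05% of all genes). Irf9, of the interferon-stimulated complex, fell by 0.38 on the log2 scale (edgeR adjusted p = 0.00273). Ifitm1, a membrane protein that restricts viruses, rose by 0.46 (edgeR adjusted p = 0.00731). Oasl2, of the oligoadenylate synthetase family, rose from 44 to 120 reads (2.79-fold, counting interval 1.96 to 4.04). Ifitm3 at 0.33 lost its call without Mycn-gRNA2 replicate 3 or 4 or NT replicate 3 or 4 (edgeR adjusted p up to 0.0741).

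Transcripts of the Y chromosome separated the groups most. The 10 genes of the Y-linked list summed to 0.858, 0.135, 0.515 and 0.440 CPM in NT and to 85.3, 33.1, 62.5 and 62.2 CPM with Mycn-gRNA2. Kdm5d, a histone demethylase, had 1 read over the 4 NT libraries and 16.3, 6.20, 10.5 and 10.6 CPM with Mycn-gRNA2 (1035-fold, counting interval 185 to 40921). Eif2s3y, a translation initiation factor gene, had 3 NT reads and 27.3, 9.65, 20.5 and 19.5 CPM (614-fold, counting interval 210 to 2981). Ddx3y, an RNA helicase gene, had 3 NT reads and 9.48 to 22.8 CPM (539-fold, counting interval 184 to 2617). Uty, a gene of a demethylase family, had 4 NT reads and 7.09 to 17.4 CPM (302-fold, counting interval 118 to 1110). These 4 genes have close X-linked copies, so some reads may be split between the copies. In all 4, replicate 1 was the highest Mycn-gRNA2 library and replicate 2 the lowest. Uba1y rose from 34 to 86 reads (2.59-fold, counting interval 1.72 to 3.98), with a call that ended without Mycn-gRNA2 replicate 3 or NT replicate 2, 3 or 4 (edgeR adjusted p up to 0.0843). Usp9y had no NT read and 8 with Mycn-gRNA2, Zfy1 none and 3, and Zfy2, Sry and Rbmy none in the 8 libraries. No NT library held more than 19 reads of the list and no Mycn-gRNA2 library fewer than 556, and the part of this difference between the cultures in the other results was not tested.

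Medians over the genes of each chromosome with a mean of at least 3 log2 CPM pointed to chromosomes 1 and 8 as lower in Mycn-gRNA2 cells. On chromosome 8 the median log2 fold change over 560 genes was −0.125, with 17.9% called lower and 2.86% higher, and the library medians were −0.181, −0.0952, −0.119 and −0.103 in replicates 1 to 4, against −0.0076 to 0.0132 in NT. On chromosome 1 it was −0.0932 over 540 genes, with 16.3% called lower and 4.07% higher. There the libraries were uneven, at −0.14, −0.017, −0.107 and −0.168, so that replicate 2 lay within the NT range of −0.0322 to 0.0286. Chromosome 14 had a smaller shift (−0.0439, 12.3% called lower). Its library medians were −0.029, −0.0449, −0.0604 and −0.0654 in replicates 1 to 4, all below the NT range of −0.00671 to 0.0152. Chromosome 3 lay at 0.0475 with 17.8% called higher and 7.35% lower. Its library medians were 0.0622, 0.00778, 0.0584 and 0.0308 in replicates 1 to 4, so that replicate 2 lay within the NT range of −0.0047 to 0.0117. Prdm14, Dock10, En1, Panct2, Nop58 and Lamc1, described above as lower, lie on chromosome 1, and Sult5a1, Zmat4, Ell, Sox1, Gins3 and Ier2 on chromosome 8. Of the genes described as higher, Ddx18, Ier5, Col3a1 and Cd34 lie on chromosome 1 and Col4a1 on chromosome 8. Chromosome 14 holds, among others, Lrrc16b and Piwil2, described as lower, and Sall2, described as higher. Rbm15, Eif4e, Ccna2, Plk4, Zmat3 and Lef1, also described as higher, lie on chromosome 3, and so does Sox2, described as lower. The chromosomes' copy number was not measured, and the part of these shifts in the results was not tested.

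**Figure D5:**
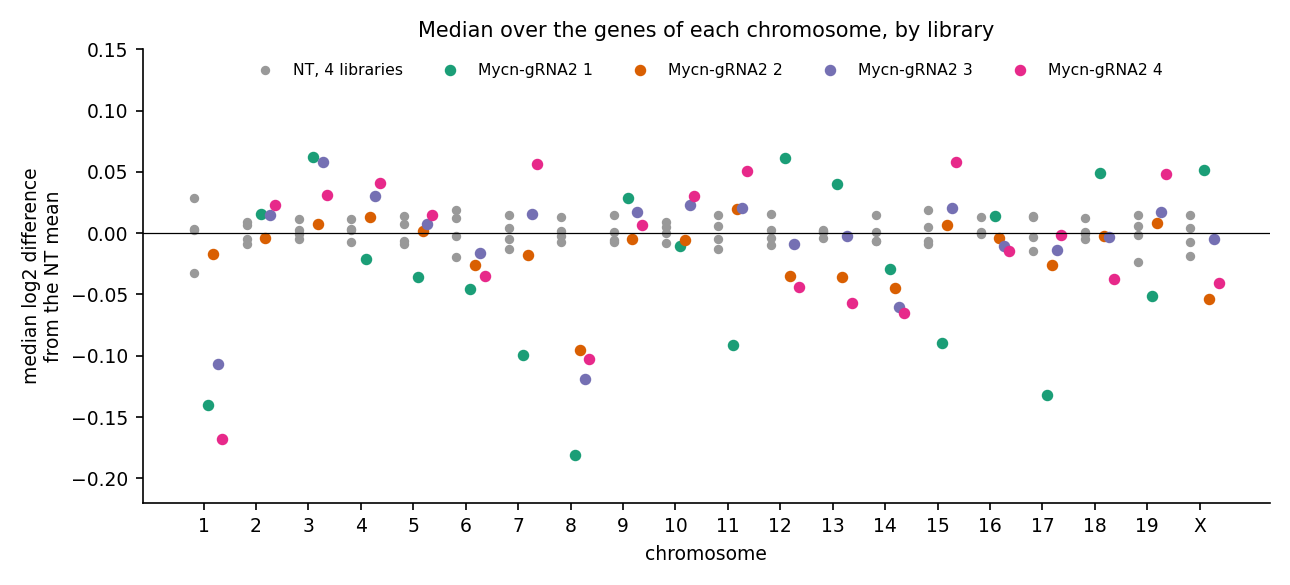
Points give the median log2 difference from the NT mean over the genes of each chromosome, for each NT library (grey) and each Mycn-gRNA2 library (coloured by replicate), with chromosome Y left out. All 4 Mycn-gRNA2 libraries lie below every NT library on chromosomes 8 and 14, and 3 of 4 do on chromosome 1.

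Per ERCC read the picture shifted upward. The libraries held 61.3, 72.1, 65.1 and 63.4 endogenous reads per ERCC read in NT and 85.0, 65.6, 81.6 and 95.6 with Mycn-gRNA2. Replicate 2 lay within the NT range and the other 3 above it. The difference of 0.313 on the log2 scale (1.24-fold) did not pass (exact two-sided permutation p = 0.0571, where 4 against 4 allow no less than 0.0286). Without each library in turn it ran from 0.235, without Mycn-gRNA2 replicate 4 (exact permutation p = 0.114), to 0.416, without Mycn-gRNA2 replicate 2 (exact permutation p = 0.0286). Cell counting and RNA yield enter this value, because the ERCC RNAs joined the RNA after extraction, and neither was checked.

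Gene by gene on that scale, 3817 of 14497 genes (26.3%) rose and 75 (0.517%) fell, with a median log2 fold change of 0.311. Of the 1022 genes that fell relative to the transcriptome, 75 also fell per ERCC read, 947 were not called and none rose, and 1461 of the 1462 relative rises also rose. The count of rises depended on single libraries: it was 7849 without Mycn-gRNA2 replicate 2, 2491 without Mycn-gRNA2 replicate 3, 1897 without Mycn-gRNA2 replicate 4, 1813 without NT replicate 1, 2419 without NT replicate 3 and 2231 without NT replicate 4. The count of falls was 133 without Mycn-gRNA2 replicate 1, 39 without Mycn-gRNA2 replicate 3, 44 without NT replicate 3 and 48 without NT replicate 4. Among the lists, 39 of 77 MYC target genes (50.6%) rose per ERCC read, with a median of 0.39, and 16 of 26 sterol synthesis genes (61.5%), with a median of 0.48. Of the ribosome biogenesis factors 24 of 62 rose, and of the ribosomal protein genes 20 of 78, both with a median near that of all genes (0.33 and 0.32). Lysosome and autophagy genes rose in 5 of 42 with a median of 0.21. Of the MYC target rises 18 of 39 held without each library, and of the ribosomal protein rises 1 of 20.

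Relative to the transcriptome, none of the 14497 genes differed between Mycn-gRNA3 and Mycn-gRNA2 at an edgeR adjusted p under 0.05, or with the replicate block, and 1274 did at an unadjusted p under 0.05. Per ERCC read 1 gene (0.0069%) differed, Rhox5. Without Mycn-gRNA2 replicate 4 there were 1988 such genes per ERCC read, and without Mycn-gRNA2 replicate 2 or 3 or Mycn-gRNA3 replicate 3 there were none. Both guides share the NT controls, so their values against NT are given side by side only. Mycn had a log2 fold change of 0.75 with Mycn-gRNA2 and 0.97 with Mycn-gRNA3 (adjusted p of the difference 0.549), Nanog −0.57 and −0.64, Sall2 1.60 and 1.74, and Kdm5d 9.43 and 9.22. Rhox5 had the lowest adjusted p of a difference on both scales. It stood at 28.1 to 37.1 CPM with Mycn-gRNA3, above all 4 Mycn-gRNA2 libraries, and its relative log2 fold change was −0.73 with Mycn-gRNA2 and 0.13 with Mycn-gRNA3 (edgeR adjusted p of the difference 0.281). Per ERCC read it was at −0.42 and 0.61, a difference of 1.02 (SE 0.175, edgeR adjusted p = 0.0114) that did not pass without Mycn-gRNA2 replicate 2 or 3 or Mycn-gRNA3 replicate 3 (adjusted p 0.0646 to 0.282). Of the next 4 genes by relative p, each with an adjusted p of 0.549, Cript was at 0.31 with Mycn-gRNA2 and near 0 with Mycn-gRNA3, Cmtr1 at −0.44 and 0.22, Mfsd3 at −0.15 and 0.40, and Gm4841 at 0.30 and −0.95.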

How the data were processed

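PolyA RNA of 12 libraries was analysed, 8 of them in the comparison. The authors' deposited table holds whole-number counts per gene for 24421 genes and 92 ERCC RNAs. The tools named in the submitters' processing notes are Trim Galore 0.4.0, featureCounts (Subread 1.5.0) and edgeR 3.32.1, with the build mm10; aligner, annotation and strand setting were not given in the sources used here. The other deposited table has log2 values (12042 genes), each equal to log2(count + 0.5) minus a constant per library that lies within 0.0015 of ERCC scaling by TMM, and it was used in an alternative only.

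Tests on the deposited counts used edgeR 4.0.16 under R 4.3.3 (robust quasi-likelihood test, filterByExpr, 14497 genes, a term per group over all 12 libraries, Benjamini-Hochberg adjusted p under 0.05). TMM over endogenous genes gave levels relative to the transcriptome, and ERCC totals as library sizes gave levels per ERCC read. Printed CPM are TMM-scaled, with precision set by 17248564 to 26405190 endogenous reads per library. Endogenous reads per ERCC read were compared by exact permutation (scipy 1.17.1). The fit was tested on simulated data. Counts differed by more than sampling noise between replicates, so none was taken for a copy.

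Genes named in the text were the target with Myc and Alkbh5; the 10 largest relative changes each way and 5 falls per ERCC read, all called, without overlap and with 1 log2 CPM or more on average; the 3 lowest p each way; up to 3 called members per list by p; the Y-linked list; the 5 genes with the lowest p between the guides; and further members to complete counts of 5 or fewer. Some named genes are not reported here. Eif4e, Phb and Cdk4 came in with their promoters. The members, lists and rules were chosen with earlier results of these data known. Alternatives were DESeq2 1.42.0, limma 3.58.1 on the deposited log2 values, other scalings, no filter, a replicate block, replicates 1 and 2 or 3 and 4 alone, each library left out and, chosen after seeing the data, the guide difference without each guide library and a GC correction (GC content from the GENCODE annotation of the same build, known for 96.3% of genes). Promoters came from RefSeq. Of the 30 lists, mitochondrially encoded genes had no member in the table and 2-cell-like genes had 1 tested, which did not pass. Read ratio intervals are 95% and exact.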

Additional observations from a re-analysis of the deposited data

Results flagged for a closer look

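In 15 of 252 groups of 4 libraries tested, the highest or lowest library stood apart by more than Dixon's 95% limit. Chance flags about 1 in 20 groups, so the total is near the number chance gives. The total says nothing on flags that share a library, since genes of a library are not independent, and their spread over libraries was not tested. Mycn-gRNA2 replicate 1 was set apart in 6 genes: Ccna2 at 286 CPM (others 212 to 224), Aurka at 161 CPM (110 to 118), Lamc1 at 1010 CPM (954 to 959), Fgf17 at 36.8 CPM (48.9 to 50.0), Mcm7 at 408 CPM (446 to 453) and Cdk4 at 341 CPM (386 to 393). Mycn-gRNA2 replicate 2 was set apart in Polr2a at 657 CPM (566 to 575), and replicate 4 in Myc at 137 CPM (121 to 123). Among NT libraries, replicate 3 was set apart in D630039A03Rik at 4.39 CPM (6.91 to 7.08), Nop58 at 723 CPM (624 to 632), Rpl41 at 470 CPM (596 to 615) and Piwil2 at 24.5 CPM (22.4 to 22.7), replicate 1 in Rcan2 at 8.98 CPM (11.8 to 12.3) and Evx1 at 1.94 CPM (0.660 to 0.852), and replicate 2 in Mlxipl at 2.56 CPM (3.34 to 3.47). Evx1, a streak factor, had a log2 fold change of −1.94 that did not hold without 6 of the 8 libraries, among them NT replicate 1 (edgeR adjusted p up to 0.118).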

How the results depend on the processing

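Relative to the transcriptome, the 1462 rises and 1022 falls came to 971 and 578 with the 8 libraries alone, 32 and 1 with replicates 1 and 2 alone, 2587 and 2243 with replicates 3 and 4 alone, and 1031 to 2217 rises and 591 to 1897 falls without each library in turn. Per ERCC read, the 3817 rises and 75 falls came to 404 and 6 with replicates 1 and 2 alone, 8080 and 120 with replicates 3 and 4 alone, and 1813 to 7849 and 39 to 133 without each library. The cause was not tested. Genes that differ between the guides numbered 1 per ERCC read, 2 with the replicate block, and 0 to 1988 without each guide library (relative: 0 in all), alternatives chosen after seeing the data. Endogenous reads per ERCC read differed by 0.235 to 0.416 on the log2 scale without each library and passed without Mycn-gRNA2 replicate 2 (0.416). DESeq2 (1628 and 1211 relative), upper-quartile scaling (1513 and 945), no filter (1373 and 916), the GC correction (1731 and 1057) and, per ERCC read, ERCC TMM (3942 and 79), limma (2726 and 62) and no filter (4294 and 94) stayed within 1.5-fold. The medians of chromosomes 1 and 8 stayed below 0 in every alternative run.

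Same-numbered NT and Mycn-gRNA2 libraries had deviations correlated at −0.0818, 0.36, 0.352 and −0.0533 across 9380 genes. Mycn-gRNA2 replicates 2 and 3 correlated best with the NT library of their number, and replicates 1 and 4 with another (0.354 with NT replicate 4 and 0.251 with NT replicate 3). These values cannot decide whether the numbers pair the samples. With the replicate block there were 1594 rises and 1214 falls relative, 3129 and 79 per ERCC read, and a blocked difference in endogenous reads per ERCC read of 0.313 (exact sign-flip p = 0.25, the smallest possible being 0.125); not every sample correlated best with its own number.

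Of 128 named genes called, 91 held without each library, 123 with the block, 11 with replicates 1 and 2 alone and 93 with ERCC totals. ERCC totals turned the sign of 8 called genes: Sox2 (0.045), Mnt (0.0076), Hexim1 (0.0868), Trp53 (0.00486), Zic2 (0.00074), Sox11 (0.116), Ccnd1 (0.00821) and Mcm7 (0.127), and of the uncalled Alkbh5 (0.262) and Mfsd3 (0.166). With replicates 3 and 4 alone the uncalled Alkbh5 (0.00784), Gm4841 (−0.0717) and Mfsd3 (0.0789) changed sign.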
